A study of Mus musculus with 148 samples.

Results

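The genes described here are the 538 genes of mouse chromosome 3 for which an allelic ratio was deposited in WT iXist-Chr3 cells after 3 days, and their silencing was measured in 6 of the 148 samples of the series, 3 libraries with doxycycline (Dox) and 3 without (NoDox). Every gene with a deposited ratio in these libraries is a member, with no selection by value. The test for each gene (limma) was fitted on 12 libraries, these 6 and those of *Suz12* null iXist-Chr3 cells with and without Dox. The *Suz12* null libraries entered only its estimate of the spread. The study asked how Xist RNA, produced from an inducible transgene, silences genes of the chromosome that carries it. iXist-Chr3 is a male mouse embryonic stem cell line of 129S X Cast background. Its Cast chromosome 3 carries several copies of a full-length Xist gene under tetracycline control, at 125.81 Mb (mm10), a site that was not targeted. The line is a single clone, so the integration site and the line cannot be told apart. All 6 libraries came from cells in differentiation medium for 3 days. The Dox libraries carry a time label of 72 h with doxycycline and the NoDox libraries one of 0 h, while the general growth protocol in the labels states a shorter induction. That protocol also names a layer of inactivated mouse fibroblasts as feeders for the stem cells.

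Xist is a long noncoding RNA that coats the chromosome from which it is transcribed and, in female mammals, starts X chromosome inactivation. Its A-repeat recruits the repressor SPEN, and Polycomb complexes modify histones along the coated chromosome. Placed on an autosome, the same RNA can spread over genes that are normally expressed from both copies, so the silenced copy can be read against the other copy in the same cells.

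In ChrRNA-seq, the RNA that stays with chromatin is sequenced, so introns of nascent transcripts contribute to the allele assignment. The allelic ratio of a gene is Xi/(Xi + Xa), where Xi stands for reads of the Cast allele, on the transgene's chromosome, and Xa for reads of the 129S allele. A ratio of 0.5 means equal reads from both alleles and 0 means no reads from the transgene's chromosome. Silencing (z) is the mean ratio of the Dox libraries less that of the NoDox libraries, so a more negative z is stronger silencing. Read numbers do not accompany the ratios, and the depth of a gene in a library is not known, apart from the minimum of 10 reads over SNPs that the authors set. A ratio lowered in every cell and a ratio lost in a part of the cells cannot be told apart in these bulk libraries. The paper left out later times because selection against autosomal monosomy makes cells with detectable Xist RNA ever fewer in this line. The share of such cells in the Dox libraries is not known from the ratios. Precision was taken from the spread between libraries, which the study calls biological replicates. The labels give only replicate numbers, which do not show separate cultures, so p-values measure the spread between these samples. No library pair held identical values. Dox replicate 3 stood apart from the other Dox libraries. Of the 538 genes, 364 (67.7%) had their highest Dox ratio in Dox replicate 3, against 101 in replicate 1 and 73 in replicate 2. The median share of the uninduced ratio was 70.5% in Dox replicate 3, and 62.9% and 62.5% in replicates 1 and 2.

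Nearly the whole chromosome lost reads from the transgene's allele, but few genes lost them completely. By limma, 460 of the 538 genes (85.5%) were lowered at an adjusted p under 0.05 and none was raised (0%, also 0 genes at an unadjusted p under 0.05). This fit took its spread from WT and *Suz12* null libraries, and with the WT libraries alone 459 genes were lowered. In 470 genes (87.4%) the highest Dox ratio was under the lowest NoDox ratio. Around the median z of -0.158, z at the 10th percentile was -0.332 and at the 90th percentile -0.0559, and the lowest z was -0.719. Expressed as the share of the uninduced ratio that remained, over 535 genes with a NoDox ratio of at least 0.1, the median gene kept 64.0% (SD of 4.49 percentage points between Dox libraries, n = 3). The share was under 50% in 169 genes, under 25% in 37 genes and under 10% in 11 genes. At the other end, 37 genes (6.92%) kept at least 90%. High silencing, a z under -0.2, was found in 213 genes (39.6%), and weak or no silencing, a z over -0.05, in 42 genes (7.81%). The exact two-sided permutation test of the median z over the 6 libraries gave p = 0.10, the smallest that 3 libraries against 3 allow.

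**Figure D1:**
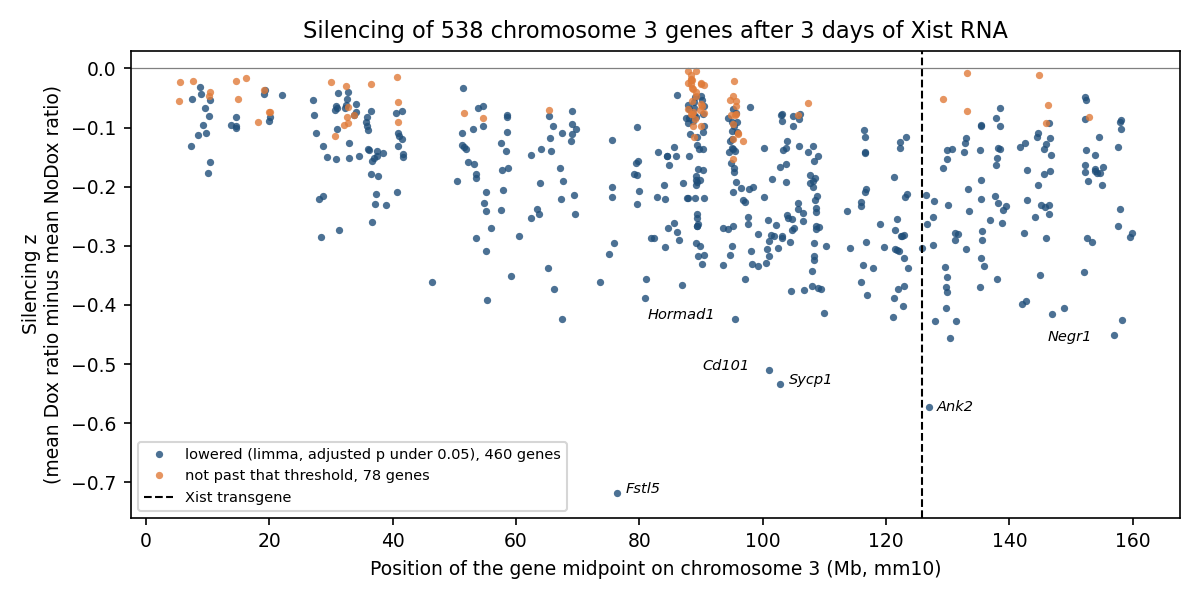
Silencing z (mean ratio with Dox less that without, n = 3 libraries each) of 538 genes by the midpoint of the gene on chromosome 3 in Mb (mm10). Blue points are the 460 genes lowered by limma, orange points the 78 genes past no threshold, and the dashed line is the transgene at 125.81 Mb; all points lie below 0, and *Fstl5* is lowest at -0.719.

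The 10 genes with the most negative z were taken among lowered genes whose Dox and NoDox libraries did not overlap. Their z lay between -0.719 and -0.424. Over all genes, 470 of 538 (87.4%) had every Dox ratio below every NoDox ratio. *Fstl5*, a follistatin-like secreted glycoprotein, had NoDox ratios of 0.756, 0.923 and 0.886 and Dox ratios of 0.172, 0.0741 and 0.163, a z of -0.719 ± 0.0572 (limma adjusted p = 1.70e-06). The error given beside a z of a single gene, here and below, is limma's moderated standard error, which draws on the spread in all 12 libraries of the fit, *Suz12* null cells included, and on that of other genes. Without Dox most of its reads came from the transgene's allele, and with Dox few did. *Ank2*, ankyrin 2, an adaptor between membrane proteins and the spectrin cytoskeleton, went from 0.598, 0.609 and 0.584 to 0.0210, 0.0235 and 0.0281, a z of -0.573 ± 0.0211 (limma adjusted p = 3.50e-08). The SD of *Ank2* over the WT libraries was smaller than that error, 0.0128 without Dox and 0.00363 with it (n = 3 each), and its Dox libraries lay close together, near 0. *Sycp1*, a structural protein of the synaptonemal complex that holds homologous chromosomes together in meiosis, had NoDox ratios of 0.724, 0.716 and 0.825 and Dox ratios of 0.284, 0.156 and 0.222 (z of -0.534 ± 0.0421). *Hormad1*, a protein of the meiotic chromosome axis, went from 0.644, 0.684 and 0.646 to 0.219, 0.229 and 0.255 (z of -0.424 ± 0.0253).

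The other members of these 10 had z between -0.511 and -0.425. *Cd101*, an immunoglobulin superfamily membrane protein, had a z of -0.511 ± 0.0866. *Col25a1*, a transmembrane collagen, had a z of -0.456 ± 0.0476, and *Negr1*, a neuronal adhesion molecule, one of -0.450 ± 0.0247. *Lrrc7*, a scaffold protein of the postsynaptic density, had NoDox ratios of 0.362, 0.439 and 0.667 that differed widely, and Dox ratios of 0.152, 0.04 and 0. The remaining members were *Sgms2*, a sphingomyelin synthase (z of -0.427 ± 0.0430), and *5730508B09Rik* (z of -0.428 ± 0.0275). Several of the 10 were barely expressed, with an RPKM of 0.101 for *Lrrc7*, 0.202 for *Fstl5*, 0.346 for *Negr1* and 0.352 for *Col25a1*, whereas *Sycp1*, *Ank2* and *Hormad1* had RPKM values of 19.7, 15.1 and 14.8. The size of z is limited by the uninduced ratio, since a ratio cannot fall below 0. The 30 genes with a NoDox ratio over 0.6 had a median z of -0.308, and the 422 genes with a NoDox ratio from 0.4 to 0.6 one of -0.153, while the median shares kept were 53.0% and 68.0%.

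**Figure D2:**
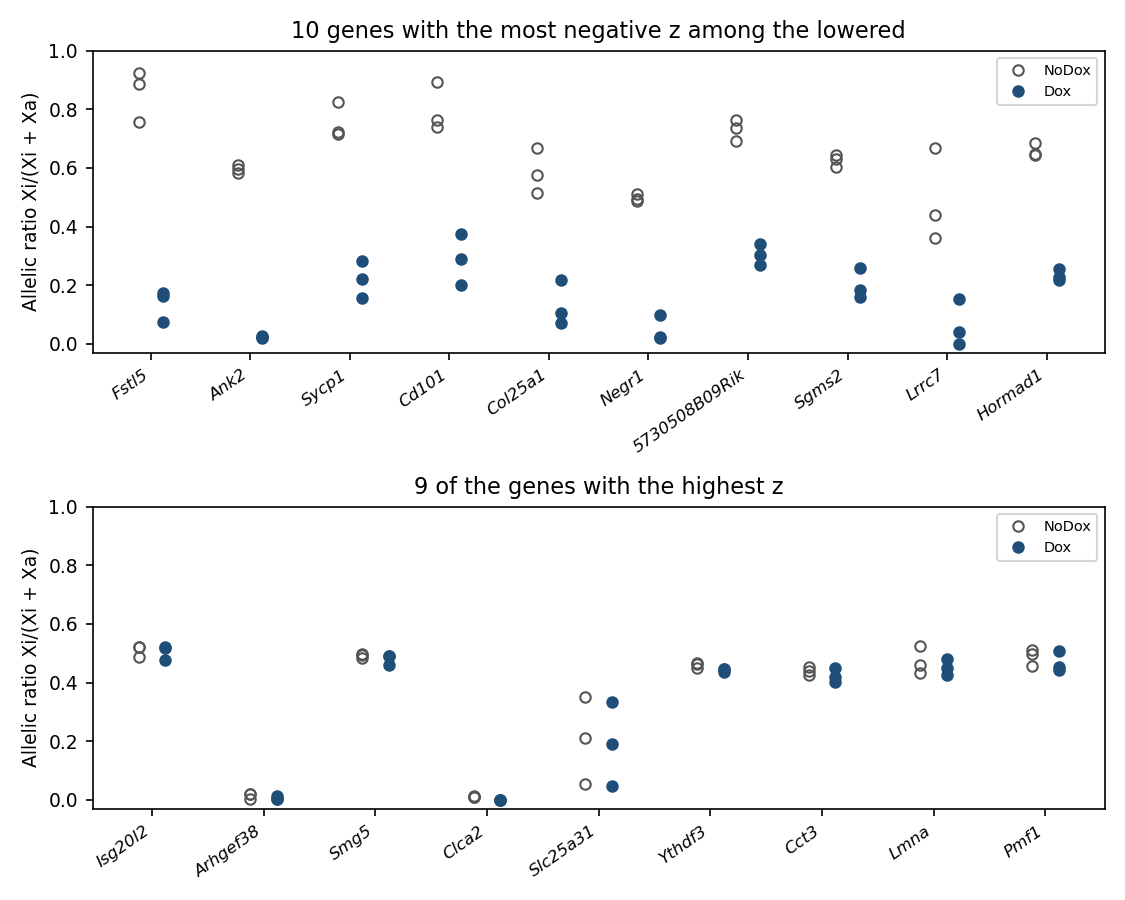
Allelic ratio of each gene (vertical axis, 0 to 1) in the 3 NoDox libraries (open circles) and the 3 Dox libraries (filled circles), for the 10 lowered genes with the most negative z and for 9 of the 10 genes with the highest z. In the upper panel the Dox libraries lie below the NoDox libraries for all 10 genes, which was a condition for taking them. In the lower panel *Arhgef38* and *Clca2* lie near 0 in all libraries.

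Ranked by the share that remained instead of by z, 3 genes within 3 Mb of the transgene came first. These genes were chosen after their values were seen. *Ugt8a*, which makes the galactolipid of myelin and is the gene closest to the transgene, kept 3.19%, with Dox ratios of 0.0102, 0 and 0.0198 against NoDox ratios between 0.303 and 0.328. *Ank2* kept 4.05% and *Synpo2*, an actin-binding protein of muscle, 5.80%. Not all of the most completely silenced genes lay close by. *Bmpr1b*, a receptor for bone morphogenetic proteins 16.2 Mb away, kept 7.77%, *Negr1*, 31.1 Mb away, kept 9.37%, and *Bche*, butyrylcholinesterase, 52.1 Mb away on the other side, kept 9.43%.

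The 10 genes with the highest z were none of them past the limma threshold. *Isg20l2*, a nuclease of ribosome biogenesis, had NoDox ratios of 0.520, 0.486 and 0.521 and Dox ratios of 0.476, 0.520 and 0.518, a z of -0.00425 ± 0.0253 (limma adjusted p = 0.871). *Smg5*, a factor of nonsense-mediated mRNA decay, had a z of -0.0106 ± 0.0149. *Cct3*, a subunit of the cytosolic chaperonin, had NoDox ratios of 0.427, 0.453 and 0.441 and Dox ratios of 0.401, 0.419 and 0.450. *Lmna*, which encodes lamins A and C of the nuclear envelope, had a z of -0.0198 ± 0.0359, and *Pmf1*, a subunit of a kinetochore complex, one of -0.0201 ± 0.0265. In all of these the Dox and NoDox libraries overlapped. *Ythdf3*, a reader of methylated adenosine in RNA, lay 109.6 Mb from the transgene and had Dox ratios of 0.445, 0.437 and 0.448, each below the NoDox ratios of 0.467, 0.449 and 0.463, but it was not past the threshold (z of -0.0164 ± 0.0124, limma adjusted p = 0.231). For some of these the sign rested on a single library. Without NoDox replicate 1, z was 0.00127 for *Isg20l2*, and without Dox replicate 1 it was 0.010. Without NoDox replicate 3 it was 0.00182 for *Isg20l2* and 0.00630 for *Lmna*.

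A further 3 of the 10 genes with the highest z say little about silencing. *Arhgef38*, a guanine nucleotide exchange factor, and *Clca2*, a chloride channel regulator, had mean NoDox ratios of 0.0140 and 0.0110, so that almost no reads came from the transgene's allele before induction. *Clca2* was listed at 0 in all 3 Dox libraries. *Slc25a31*, an ADP/ATP carrier of the germ line, had NoDox ratios of 0.350, 0.0556 and 0.211 and an RPKM of 0.355, and its z was 0.0565 without Dox replicate 1 and 0.0574 without NoDox replicate 1. Of the 42 genes with a z over -0.05, 20 lay in the weakly silenced stretch 30 to 40 Mb from the transgene on the centromeric side, *Isg20l2*, *Smg5*, *Cct3*, *Lmna* and *Pmf1* among them, and 18 lay more than 80 Mb away. Of all 538 genes, 114 lay in that stretch, which is known from the same z values, and 97 more than 80 Mb away. Those 42 genes had a median RPKM of 23.3 and a median length of 22.6 kb, against 7.14 and 49.5 kb for the 213 genes with a z under -0.2.

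Of the genes not past the limma threshold, many lay in the same places. For these 78 genes the median z was -0.0611, and only 7 of them had a z under -0.1. Of the 78, 39 were among the 114 genes of the stretch 30 to 40 Mb away on the centromeric side, and 24 were among the 97 genes at distances over 80 Mb. The median standard error of z was 0.0410 in these 78 genes and 0.0259 in the 460 lowered genes. Limma sets z against this same error, so a wider error in the genes that did not pass is in part built in. Among members of the gene lists, for *Rnf115*, a ubiquitin ligase, z was -0.123 ± 0.0939 (limma adjusted p = 0.233), and for *Vps45*, a regulator of vesicle fusion, -0.110 ± 0.0528 (limma adjusted p = 0.0725).

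Around the transgene, the 5 nearest genes on each side were all lowered, beside 85.5% over all genes, but to different degrees. On the telomeric side the interval of the first gene, *Ugt8a*, which is on the minus strand, begins 0.0553 Mb after the insertion. *Arsj*, a sulfatase, kept 7.52% of its uninduced ratio, and *Camk2d*, a calcium/calmodulin-dependent kinase, kept 18.0% with Dox ratios of 0.0584, 0.0551 and 0.0592. *Larp7*, which binds the 7SK RNA that restrains transcription elongation, lies 1.74 Mb away and kept 46.4%, with Dox ratios of 0.220, 0.256 and 0.301. On the centromeric side no gene of the table lies within 2.3 Mb. There *Snhg8*, a small nucleolar RNA host gene, was the nearest and kept 20.6% (z of -0.337 ± 0.0230), and *Synpo2* was nearly silent with Dox ratios of 0.0179, 0.0161 and 0.00627. Between them, *Mettl14*, a subunit of the RNA adenosine methyltransferase, kept 47.5%, and *Sec24d*, a coat protein of vesicles leaving the endoplasmic reticulum, kept 62.7% with a z of only -0.115 ± 0.0329 (limma adjusted p = 0.00745). *Usp53*, a ubiquitin-specific protease family member, kept 37.4%.

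Silencing declined with distance on both sides, with 1 interruption on each. Genes within 5 Mb had a median z of -0.293 ± 0.0267 (SD of the medians of the Dox libraries, n = 3) on the centromeric side (21 genes) and -0.275 ± 0.0142 on the telomeric side (20 genes), where the value given is the mean of the library medians. The share kept was alike, at 35% and 33.9%. From there the centromeric side stayed at -0.232 ± 0.0118 at 5 to 10 Mb, -0.240 ± 0.0294 at 10 to 20 Mb and -0.234 ± 0.0198 at 20 to 30 Mb. The telomeric side went from -0.216 ± 0.0123 at 5 to 10 Mb to -0.198 ± 0.0314 and -0.161 ± 0.0298 over the next intervals. Beyond the weakly silenced stretch at 30 to 40 Mb (-0.112 ± 0.010, 114 genes), the centromeric side returned to -0.206 ± 0.0172 at 40 to 50 Mb, and it ended at -0.0675 ± 0.0198 in the 33 genes more than 100 Mb away, which kept a median of 84.5%. At the telomeric end of the chromosome, 10 genes more than 30 Mb away had a median of -0.240 ± 0.0377, below that of the 32 genes at 20 to 30 Mb. That interval holds few genes, *Negr1* and *Lrrc7* among them. Dox replicate 3 had the highest median in every interval of both sides.

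**Figure D3:**
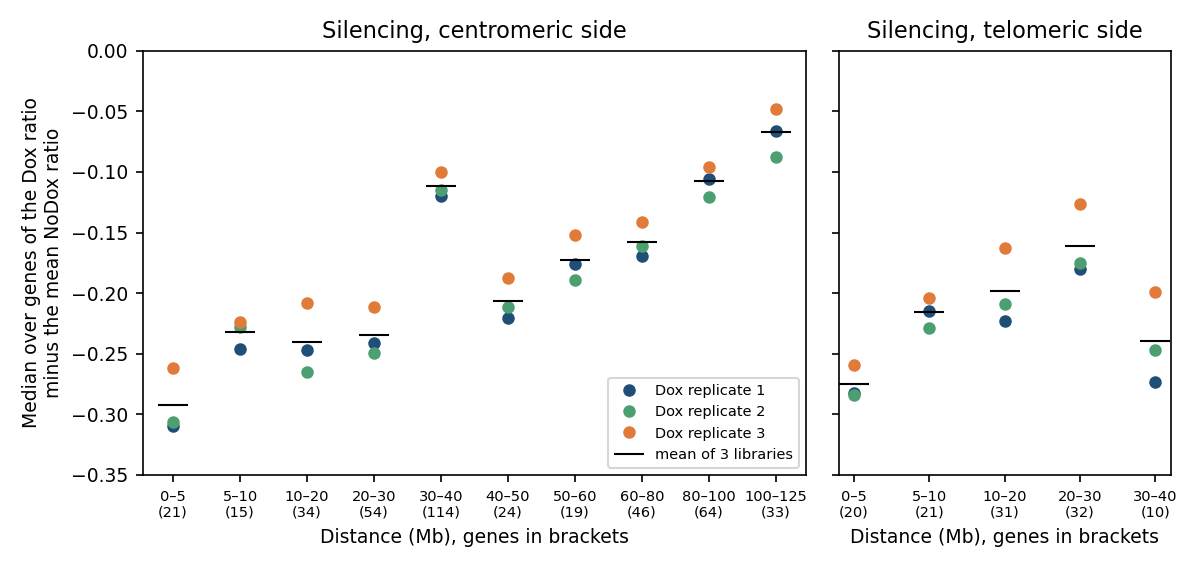
Median over genes of the difference between a Dox library and the NoDox mean (vertical axis) by distance from the transgene in Mb, on the centromeric and the telomeric side, with the number of genes in brackets. Each point is 1 of the 3 Dox libraries and each line their mean; values rise from -0.293 within 5 Mb to -0.0675 beyond 100 Mb on the centromeric side, with a step at 30 to 40 Mb.

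Groups of genes were compared by distance, side, expression, length, strand and promoter CG count, 6 comparisons in all. For each, the exact two-sided permutation test over the 6 libraries gave p = 0.10 (adjusted p = 0.10 over the 6 comparisons), the smallest possible, so that none could pass 0.05. The sizes differed greatly. Genes within 10 Mb (77 genes) and beyond 50 Mb (162 genes) differed by -0.162 in median z (mean of the Dox libraries -0.153 ± 0.00873, SD, n = 3), and the shares kept were 41.4% and 75.5%. Genes are not independent replicates, and as a description across them the Spearman correlation of z with distance was 0.438 on the centromeric side (424 genes) and 0.227 on the telomeric side (114 genes), where no gene lies more than 34.1 Mb away. Within 30 Mb of the transgene, the median z of telomeric genes was 0.0551 above that of centromeric genes (mean of the Dox libraries 0.0432 ± 0.00673, SD, n = 3), with medians of -0.197 (104 genes) and -0.252 (124 genes). This contrast depended on the range. It was 0.0352 within 20 Mb and 0.0275 with means over genes, and over all distances it turned to -0.0530. The genes added beyond 30 Mb include 114 centromeric and 10 telomeric genes at 30 to 40 Mb, and more distant genes lie only on the centromeric side. The part of each in this turn was not tested.

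Genes with more RNA had a median z nearer 0. The 180 genes with the highest RPKM (17.6 or more), the deposited measure of expression, had a median z of -0.119 and kept 74.9%. The 179 genes with the lowest RPKM (6.13 or less) had a median z of -0.217 and kept 51.4%. The difference of 0.0980 had the same direction in every Dox library (mean 0.0973 ± 0.0113, SD, n = 3). Both groups had nearly the same uninduced ratio (0.475 and 0.464) and lay at like distances from the transgene (medians of 35.3 and 31.1 Mb). By limma 159 of 180 genes were lowered in the high group and 144 of 179 in the low group, beside 85.5% over all genes, and this difference in counts was not tested. The median standard error was 0.0198 in the high group and 0.0406 in the low group. The 5 genes with the highest RPKM were all lowered. *Fxr1*, an RNA-binding relative of the fragile X protein with an RPKM of 195.4, went from 0.432, 0.443 and 0.456 to 0.376, 0.391 and 0.387 and kept 86.6%. *Mcl1*, an anti-apoptotic BCL2 family member, kept 86.4%, and *Jade1*, a scaffold of a histone acetyltransferase complex, 82.6%. *Rabggtb*, the beta subunit of the enzyme that prenylates Rab GTPases, kept 67.8%, with Dox ratios of 0.310, 0.284 and 0.332.

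Long genes had a more negative median z than short genes. The 180 longest genes (52.1 kb or more) had a median z of -0.224 and kept 51.3%, and the 179 shortest (19.2 kb or less) had a median z of -0.132 and kept 71.5%. The difference was -0.0921 (mean of the Dox libraries -0.0857 ± 0.0110, SD, n = 3). By limma 169 of the 180 long and 131 of the 179 short genes were lowered, beside 85.5% over all genes, and this difference in counts was not tested. Length and expression overlap, with a Spearman correlation of -0.193 across 538 genes, so the genes were divided into 3 groups by each. At each of the 3 levels of RPKM the longest genes had the most negative median, and at each of the 3 levels of length the genes of lowest RPKM had. The extremes were -0.263 in the 80 long genes of low RPKM, which kept 42.4%, and -0.0968 in the 64 short genes of high RPKM, which kept 78.7%. With the length groups formed anew within the genes of high RPKM, an alternative chosen after seeing the data, the contrast was -0.0436, and within those of low RPKM it was -0.0947. The difference between these contrasts was not tested.

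**Figure D4:**
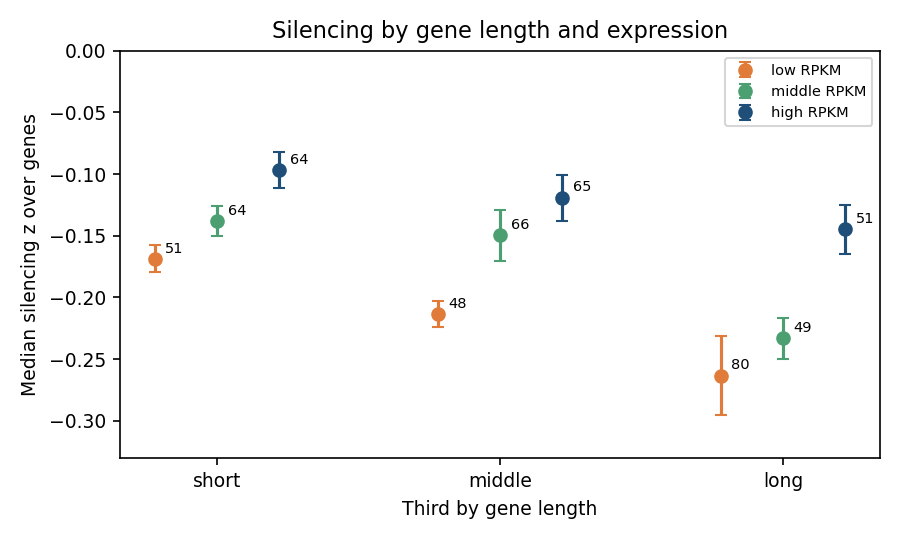
Median silencing z over genes (vertical axis) for 9 groups formed from 3 levels of gene length (horizontal axis) and 3 levels of RPKM (colours), with the number of genes beside each point. Error bars are the SD of the medians of the 3 Dox libraries; the lowest point is -0.263 for long genes of low RPKM and the highest -0.0968 for short genes of high RPKM.

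By strand, the 284 genes on the plus strand had a median z of -0.153 and the 254 genes on the minus strand one of -0.166. The difference of 0.0135 (mean of the Dox libraries 0.0109 ± 0.00563, SD, n = 3) was 0.00437 without NoDox replicate 3 and was 0.00722 over genes with an RPKM of at least 1. By RefSeq gene type, 452 of 525 protein-coding genes, 7 of 9 lncRNA genes and 1 of 4 transcribed pseudogenes were lowered, beside 85.5% over all genes. The lncRNA genes had a median z of -0.120 and a range from -0.368 for *4933405D12Rik*, 2.91 Mb from the transgene, to -0.0697 for *A730090N16Rik*. *Sox2ot*, the long transcript that overlaps the pluripotency gene *Sox2*, kept a Dox ratio of 0.263 ± 0.0399 against 0.411 ± 0.0191 (SD, n = 3 each; z of -0.148 ± 0.0274).

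Genes with CG-rich promoters had a median z somewhat nearer 0. A promoter window of 300 bases was matched to 431 of the 538 genes (80.1%) in RefSeq for GRCm38.p6, the assembly of mm10, and the letters CG (the same on both strands) were counted. The windows of these genes held a median of 21 CG, against 7 in all 1635 chromosome 3 windows of the reference, of which 95.5% held at least 1. The 144 genes with 25 CG or more had a median z of -0.162, and the 143 genes with 16 or fewer one of -0.201, a difference of 0.0390 (mean of the Dox libraries 0.0351 ± 0.00367, SD, n = 3). By limma 135 of the 144 CG-rich and 116 of the 143 CG-poor genes were lowered, beside 85.5% over all genes and with median standard errors of 0.0234 and 0.0328, and this difference in counts was not tested. The difference in z was 0.0191 among genes with an RPKM of at least 1 and 0.0240 with means over genes. CG-rich genes had a median RPKM of 13.8 and CG-poor genes one of 6.76, and with the CG groups formed anew within the genes of high and of low RPKM, also chosen after seeing the data, the contrast was 0.0229 and 0.0425. Across the 431 genes the Spearman correlation between z and the CG count was 0.0363.

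To show what lies at the starts of genes at both ends of the range, the 250 bases before the start are printed for the pair of lowered genes with the most negative z and the pair with the highest z. Only genes with a window, a listed interval as long as the gene length and, for the weak genes, a NoDox ratio of at least 0.1 and an RPKM of at least 1 were taken. Sequences are from RefSeq (GRCm38.p6), run 5′ to 3′ on the gene's strand, and have each CG in capitals. The strongly silenced *Fstl5* (chr3:76074311-76074560, plus strand) held 13 CG and *Sycp1* (chr3:102936101-102936350, minus strand) 17, and the weakly silenced *Isg20l2* (chr3:87930064-87930313, plus strand) held 24 and *Smg5* (chr3:88336010-88336259, plus strand) 20. These 4 genes do not stand for their classes, since the median CG count of the 300-base windows was 20 in genes with a z under -0.2, 21 in genes with a z over -0.05 and 22 between them. In these 300-base windows *Fstl5*, *Sycp1*, *Isg20l2* and *Smg5* held 15, 21, 29 and 23 CG. Other genes at the ends of the range went the other way there, with 29 CG for *Negr1* and 24 for *Hormad1* against 1 for *Lmna* and 12 for *Pmf1*.
Fstl5: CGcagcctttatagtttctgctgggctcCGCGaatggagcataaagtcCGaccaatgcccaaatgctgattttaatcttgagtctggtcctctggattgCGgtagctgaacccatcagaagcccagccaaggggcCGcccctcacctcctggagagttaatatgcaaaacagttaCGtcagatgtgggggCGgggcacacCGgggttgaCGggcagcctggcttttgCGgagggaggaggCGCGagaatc
Sycp1: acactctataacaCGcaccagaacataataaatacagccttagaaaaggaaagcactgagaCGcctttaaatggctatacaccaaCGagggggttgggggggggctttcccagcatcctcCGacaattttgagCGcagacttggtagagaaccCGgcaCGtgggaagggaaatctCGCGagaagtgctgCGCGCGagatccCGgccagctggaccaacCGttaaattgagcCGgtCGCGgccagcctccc
Isg20l2: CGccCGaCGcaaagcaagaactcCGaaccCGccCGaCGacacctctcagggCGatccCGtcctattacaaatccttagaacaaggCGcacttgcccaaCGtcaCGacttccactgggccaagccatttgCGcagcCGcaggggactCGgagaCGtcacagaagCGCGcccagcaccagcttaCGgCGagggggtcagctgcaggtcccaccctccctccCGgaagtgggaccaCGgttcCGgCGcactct
Smg5: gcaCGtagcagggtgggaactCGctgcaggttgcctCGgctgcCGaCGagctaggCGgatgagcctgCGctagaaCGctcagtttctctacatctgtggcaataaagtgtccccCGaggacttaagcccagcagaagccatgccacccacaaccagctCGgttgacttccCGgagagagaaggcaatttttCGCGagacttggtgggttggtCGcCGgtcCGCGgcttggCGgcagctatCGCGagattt

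Adjacent genes resembled each other. Across 537 adjacent pairs along the chromosome the Spearman correlation of z was 0.463, with the caution that neighbours share the distance to the transgene. Genes that start within 1 kb of each other on opposite strands, and so may share a promoter region, formed 32 pairs, 27 of them divergent. They differed by a median of 0.0327 in z, and the 505 other adjacent pairs, which also hold genes further apart, by a median of 0.0660. This difference was not tested, and the 64 genes of these pairs had a median z of -0.131, beside -0.158 over all genes. *Cept1*, a choline and ethanolamine phosphotransferase, and *Dram2*, a regulator of autophagy, start 37 bases apart and had z of -0.244 and -0.258. *Capza1*, an actin-capping subunit, and *St7l* had -0.0969 and -0.0801. Of the 64, 55 were lowered (85.9%), beside 85.5% over all genes. Pairs of the same kind also diverged. *Extl2*, a glycosyltransferase, had NoDox ratios of 0.505, 0.589 and 0.531 and Dox ratios of 0.207, 0.128 and 0.205. Its partner *Slc30a7*, a zinc transporter of the Golgi that starts 43 bases away, had NoDox ratios of 0.517, 0.536 and 0.486 and Dox ratios of 0.278, 0.287 and 0.274. Their NoDox ratios overlapped and their Dox ratios did not, at a z of -0.362 ± 0.0451 for *Extl2* and -0.233 ± 0.0192 for *Slc30a7*. The larger differences of *Mtx1* and *Thbs3* (z of -0.0467 and -0.197) and of *Etfdh* and *4930579G24Rik* (-0.0981 and -0.230) came with wide scatter. *Mtx1*, a mitochondrial import protein, had 0.667 in NoDox replicate 2 and 0.395 and 0.426 in the others, and its z was 0.0388 without it. The call of *4930579G24Rik* was lost without Dox replicate 1 or 3 or NoDox replicate 3, where z was -0.221, -0.199 and -0.145. The call of *Etfdh*, a mitochondrial electron carrier enzyme, was lost without any Dox library or without NoDox replicate 1 or 2, with z between -0.101 and -0.0770.

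The 250 bases before each start of the *Slc30a7* and *Extl2* pair are printed because both starts lie within 1 short stretch. The *Slc30a7* window (chr3:116007407-116007656, minus strand) held 15 CG and the *Extl2* window (chr3:116007199-116007448, plus strand) 30, with each CG in capitals (RefSeq, GRCm38.p6).
Slc30a7: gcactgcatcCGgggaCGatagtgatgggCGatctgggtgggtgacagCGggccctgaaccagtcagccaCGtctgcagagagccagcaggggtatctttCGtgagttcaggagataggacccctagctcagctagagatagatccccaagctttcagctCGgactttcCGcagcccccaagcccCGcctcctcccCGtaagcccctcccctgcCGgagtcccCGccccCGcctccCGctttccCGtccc
Extl2: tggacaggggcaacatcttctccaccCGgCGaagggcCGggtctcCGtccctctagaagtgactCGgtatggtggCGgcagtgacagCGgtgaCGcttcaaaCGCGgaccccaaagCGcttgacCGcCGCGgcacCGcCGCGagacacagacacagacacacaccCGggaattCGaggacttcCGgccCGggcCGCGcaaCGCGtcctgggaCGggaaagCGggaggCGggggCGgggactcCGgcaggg

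Some genes departed from their surroundings, measured as the distance of z from the median of the 5 genes on either side. *Fstl5* lay lowest, at -0.528 from its neighbours, followed by *Hormad1* at -0.346, *Ank2* at -0.316 and *Sycp1* at -0.309. *Hormad1* sits in the weakly silenced stretch, where its neighbours had a median z of -0.0779. Above their surroundings lay *Enpep*, glutamyl aminopeptidase, at 0.223, *Sec22b*, a SNARE protein of the early secretory pathway, at 0.208, and *Gar1*, a protein of the pseudouridylating RNA-protein complexes, at 0.206. *Sec22b* had Dox ratios of 0.354, 0.348 and 0.362 against NoDox ratios of 0.422, 0.40 and 0.435 amid neighbours with a median z of -0.272. *Enpep* was not past the threshold, with Dox ratios of 0.0702, 0.154 and 0.250 against 0.214, 0.188 and 0.227 (limma adjusted p = 0.381). In all, 90 genes lay more than 0.1 below and 67 more than 0.1 above the genes around them.

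Among functional groups, genes of lipid, sugar and amino acid metabolism had the most negative median z of the lists with 10 or more genes, -0.241 over 24 genes, beside -0.158 over all 538. Of the 24, 20 were lowered and 14 had a z under -0.2, beside 85.5% lowered and 39.6% under -0.2 over all genes. They also lay nearer to the transgene (median 17.8 Mb, against 32.2 Mb over all genes) and had a lower median RPKM (6.53 against 10.8). *Sgms2* was the strongest, with Dox ratios of 0.257, 0.182 and 0.160. *Elovl6*, a fatty acid elongase with an RPKM of 35.7, went from 0.418 ± 0.00549 to 0.0823 ± 0.0285 (SD, n = 3 each) and kept 19.7%. *Phgdh*, the entry enzyme of serine synthesis, kept 32.4%, and *Pde5a*, a cyclic GMP phosphodiesterase, 20.3%. The list is wider than its name, with *Pde5a*, *Ampd1*, *Ampd2*, *Car2* and *Car13* on it. *Car2*, *Gyg* and *Fdps* were among those not past the threshold, with a z of -0.0850 for *Fdps*, farnesyl diphosphate synthase.

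Of 26 signalling genes, 23 were lowered and 12 had a z under -0.2, beside 85.5% and 39.6% over all genes, and the median z was -0.186. *Egf*, epidermal growth factor, had NoDox ratios of 0.603, 0.4875 and 0.446 and Dox ratios of 0.0444, 0.102 and 0.173 (z of -0.406 ± 0.0416). *Bmpr1b* went from 0.432 ± 0.00573 to 0.0336 ± 0.0162 (SD, n = 3 each). *Notch2*, a Notch receptor, kept 30%, *Nfkb1*, a subunit of NF-kappa-B, 35.7%, and *Lef1*, a transcription factor of Wnt signalling, 53.1%. *Tnik*, a kinase of the same pathway, lies 97.3 Mb away and yet had a z of -0.285 ± 0.0332. *Nras*, a Ras GTPase, and *Jade1* kept 81.1% and 82.6%. *Pik3ca*, the catalytic subunit of phosphoinositide 3-kinase, had Dox ratios of 0.472, 0.482 and 0.474, each below its NoDox ratios of 0.517, 0.513 and 0.487, but was not past the threshold (limma adjusted p = 0.0949), and neither were *Gnb4* and *Il6ra*.

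Of 23 vesicle traffic and cytoskeleton genes 22 were lowered, beside 85.5% over all genes, and their median z was -0.115. *Ank2* was the strongest, and *Snx7*, a sorting nexin, kept 24.6%. The vesicle coat genes *Sec24b* and *Sec24d*, both within 5 Mb of the transgene, had z of -0.231 ± 0.0159 and -0.115 ± 0.0329. *Tpm3*, a tropomyosin, kept 89.0%. *Actl6a*, an actin-related protein, was the weakest of the called genes here, at 0.408, 0.398 and 0.384 against 0.443, 0.436 and 0.433 (z of -0.0405 ± 0.0169, limma adjusted p = 0.0436), and its call was lost when any of the 6 libraries was left out, with z from -0.0463 to -0.0342, and on log odds (limma adjusted p = 0.0518). *Vps45* was the member not lowered.

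The lists of translation, protein turnover and energy genes, like that of vesicle genes, each had a median share above that of all genes, and none of the 3 had more than 85.5% of its genes lowered, the share over all genes. They are not separate observations, since 7 genes stand on both the translation and the energy list, among them the 3 translation genes that were not lowered. The median RPKM was 18.5, 24.9 and 10.0 in the lists of translation, protein turnover and energy genes, beside 10.8 over all genes, and the median distance was 34.6, 36.6 and 34.0 Mb, beside 32.2 Mb. Their part in the shares was not tested. Of 16 ribosome and translation genes 13 were lowered, with a median z of -0.103 and a median share of 76.9% beside 64.0% over all genes. *Larp7*, which stands on the list although it binds the 7SK RNA, was its strongest member. Next came *Wars2*, the mitochondrial tryptophanyl-tRNA synthetase (z of -0.281 ± 0.0238), and *Sars*, the cytosolic seryl-tRNA synthetase (-0.223 ± 0.0188). *Rps3a1*, a protein of the small ribosomal subunit, kept 91.6%, although its Dox and NoDox libraries gave a limma adjusted p of 0.00828. *Eif4e*, the cap-binding protein, lies 12.7 Mb from the transgene and kept 85.6%. *Mrpl24*, of the mitochondrial ribosome, was weakest, with Dox ratios of 0.385, 0.435 and 0.387 against 0.411, 0.458 and 0.413. Of 18 ubiquitin and proteasome genes 15 were lowered, with a median z of -0.138 and a median share of 70.3%, from *Usp53* (Dox ratios of 0.175, 0.164 and 0.237 against 0.500, 0.517 and 0.522) to *Ubqln4*, a ubiquilin that delivers substrates to the proteasome (z of -0.0329 ± 0.0226, limma adjusted p = 0.190). Without Dox replicate 3, *Ubqln4* passed the threshold at a z of -0.0563. *Trim2*, a ubiquitin ligase 41.6 Mb away, kept 32.2%, and the proteasome genes *Psma5*, *Psmb4* and *Psmd4* kept 63.5%, 82.7% and 80.8%, *Psmb4* without passing the threshold. Of 20 mitochondria and energy genes 14 were lowered, with a median z of -0.107 and a median share of 74.9%. *Hadh* and *Acadm*, dehydrogenases of fatty acid oxidation, kept 44.3% and 60.1%, and *Atp5f1*, a subunit of ATP synthase, 82.9%. *Ndufb5*, *Mrpl47*, *Tars2*, *Mtx1*, *Mrpl24* and *Slc25a31* were not past the threshold.

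Gene clusters of chromosome 3 were poorly covered. Of 13 S100 genes, calcium-binding proteins of the EF-hand type, 3 had a ratio. *S100a10* and *S100a11* were lowered (z of -0.271 ± 0.0181 and -0.332 ± 0.0429), and *S100a13* had Dox ratios of 0.480, 0.333 and 0.105, so that its z of -0.0749 became 0.0255 without Dox replicate 3. Of 7 glutathione transferase genes only *Gstm1* had a ratio and was lowered, from 0.522, 0.320 and 0.456 to 0.100, 0.0588 and 0.114. None of the 11 replication-dependent histone genes on the list had a ratio.

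Markers of the cells themselves were read in the same table. Of the embryonic stem cell markers on chromosome 3, *Tet2*, a 5-methylcytosine dioxygenase, had a ratio and an RPKM of 43.8, and *Sox2* was not listed. *Tet2* was lowered, from 0.434, 0.452 and 0.463 to 0.186, 0.194 and 0.245 (z of -0.241 ± 0.0270). Of 14 symbols of fibroblast markers 7 had a ratio, and *Postn*, *Sfrp2*, *S100a4*, *S100a6*, *Ccn1*, *Vcam1* and *Csf1* were not listed under these names. *Cyr61*, which is the older symbol of *Ccn1*, was the most abundant with an RPKM of 133.7, followed by *F3*, tissue factor, with 116.8 and *S100a10* with 58.9. *Col11a1*, *Ecm1* and *Ctsk*, which encode matrix and matrix-degrading proteins, had RPKM values of 3.02, 4.13 and 0.884. Of the 7, 5 were lowered, beside 85.5% over all genes, with a median z of -0.255, and *Ctsk* and *Ecm1* were not (z of -0.0791 ± 0.0479 and -0.0767 ± 0.0839). Without Dox replicate 1, z was 0.00169 for *Ecm1*. The RPKM is a single column, so a level per library is not known, and the part of feeder RNA in the ratios was not tested.

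The Dox libraries scattered most for *S100a13*, *Rusc1* and *Kcnab1*. *Rusc1*, a RUN and SH3 domain protein, had Dox ratios of 0.421, 0.591 and 0.212 against NoDox ratios of 0.619, 0.733 and 0.531, and *Kcnab1*, a potassium channel subunit with an RPKM of 0.175, had 0.103, 0.333 and 0.476 against 0.554, 0.585 and 0.786. Both were lowered (limma adjusted p = 0.0374 and 0.0191). The call of *Rusc1* was lost without Dox replicate 1 or 3 or NoDox replicate 1 or 2, with z from -0.226 to -0.122, and with the WT libraries alone (limma adjusted p = 0.0728), and that of *Kcnab1* without Dox replicate 1 or NoDox replicate 3, with z of -0.237 and -0.265.

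A separate WT pair of 1 NoDox and 1 Dox library at 3 days, which the labels title mRNA, was deposited in another table and shared 498 genes with the 6 libraries. It has no replicate, so its values are a description. If the title holds, its kind of RNA differs from the chromatin RNA of the 6 libraries. The kind of RNA and the experiment then cannot be told apart in any difference below. The median difference in the pair was more negative than in each of the 3 Dox libraries. Over the shared genes its median difference was -0.1998, and those of Dox replicates 1, 2 and 3 were -0.169, -0.176 and -0.141, and in 283 genes (56.8%) the pair was lower than all 3. Under -0.2 lay 249 of the 498 genes (50%) in the pair and 199 in the mean of the replicates. The 186 genes under -0.2 in both made up 93.5% of the 199 and 74.7% of the 249. Over -0.05 lay 25 of the 498 genes in the pair, 35 in the mean of the replicates and 11 in both. Across the 498 genes the Spearman correlation between both measurements was 0.835. Among genes with the most negative z, the difference in the pair was -0.689 for *Fstl5*, -0.540 for *Ank2*, -0.601 for *Sycp1* and -0.509 for *Hormad1*. Among genes with the highest z, *Smg5*, *Cct3* and *Ythdf3* had -0.00449, -0.0189 and -0.0316 in the pair, while *Isg20l2*, *Pmf1* and *Lmna* had -0.0619, -0.0716 and -0.113. *Extl2* and *Slc30a7* again differed, at -0.415 and -0.286. Genes of high RPKM had a median 0.112 above genes of low RPKM, and long minus short genes gave -0.107. The difference between plus and minus strand was larger in the pair, 0.0415, than over the same genes in the replicates, 0.0153, and that by CG count was 0.0298 and 0.0315. The telomeric and centromeric sides within 30 Mb differed by 0.0204 in the pair, against 0.0566 over the same genes in the replicates.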

How the data were processed

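The authors took out reads of ribosomal RNA with Bowtie2 2.3.2, mapped the others with STAR 2.4.2a to mm10 in which SNP positions were masked, separated them by allele and assigned them to genes with featureCounts. The deposited allelic ratio is a fraction for each gene and library, without read numbers, and the depth is therefore not known. RPKM is deposited as 1 column, and its library is not named, while the paper's methods name FPKM as the measure of expression. Means, differences and p-values that the authors deposited for WT and *Suz12* null cells were not used, nor were 6 columns of values per sample from *Lbr* null clones.

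Positions count from 0 in the table. In 22 genes, *Ank2* among them, the listed interval is shorter than the length, so their midpoints are approximate. The test for each gene was limma 3.58.1 (R 4.3.3; lmFit, eBayes) on ratios of 12 libraries, WT and *Suz12* null with and without Dox, with Benjamini-Hochberg adjusted p under 0.05. Groups of genes were compared by the exact two-sided permutation test over all 20 assignments of the 6 WT libraries to Dox and NoDox. Distance was measured to the midpoint of a gene. Groups by RPKM, length and CG count are the highest and lowest of 3 groups of like size. Gene types and promoter windows (300 bases, 250 of them before the start) came from RefSeq GRCm38.p6, and 421 of the 431 windows start within 500 bases of the listed start. Genes without a window were left out of that comparison. Python 3.11.15 was used with pandas 2.3.3, numpy 2.4.6, scipy 1.17.1 and, for figures, matplotlib 3.10.9.

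Named by rule are the 10 most negative z among lowered genes without overlap, the 10 highest z, the 5 genes nearest the transgene on each side, the 5 highest RPKM, the 3 largest SD over Dox libraries, the 4 genes furthest below and above the genes around them, the strongest and weakest member of each list and the 3 same-promoter pairs that differ most. Some genes the rule takes are not reported here. Other genes named were chosen after their values were seen. Members and lists were chosen with earlier results of these data known. Log odds held ratios between 0.01 and 0.99.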

Additional observations from a re-analysis of the deposited data

How the results depend on the processing

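Of 141 settings tried on the main results, 138 kept the direction of a difference, a count within 1.5 times or a share within 1 SD. This sets no limit on the size of a difference: strand went from 0.0135 to 0.00437 without NoDox replicate 3, CG count from 0.0390 to 0.0191 with an RPKM of at least 1, and side from 0.0551 to 0.0275 with means. The permutation tests cannot pass 0.05 with 3 libraries against 3 and say nothing about stability. The 213 genes under -0.2 became 148 with a limit of -0.25. The median z lay between -0.167 and -0.148 when single libraries were left out, and was -0.163 over genes with a NoDox ratio of 0.3 to 0.7. The number of lowered genes lay between 431 and 452 without a single library, and was 456 on log odds, 459 with the WT libraries alone and 461 with a trend and robust prior. It was 429 and 441, with and without adjustment, by Student's t-test, which the paper's methods name for WT and *Suz12* null data after 3 days. The methods do not state Dox against NoDox within WT as the contrast of that test. With the replicate number as a replicate block the number of lowered genes was 462. The labels do not state whether equal numbers pair the libraries. Deviations of same-numbered Dox and NoDox libraries correlated between -0.104 and 0.0669, and 1 of the 3 Dox libraries correlated best with its own number. Such correlations cannot settle the pairing, since the deviations also hold the scatter of single genes at unknown depth. Among named genes the block lost the call of *4930579G24Rik* and *Actl6a* (adjusted p by limma of 0.0583 and 0.0605). No gene was raised by limma without single libraries, with the WT libraries alone, with the block or under the limits on NoDox ratio and RPKM. The median share of 64.0% was 48.6% as odds, a different quantity by construction, and the 42 genes with a z over -0.05 became 158 with a limit of -0.1. The telomeric minus centromeric difference of 0.0551 was -0.0530 over all distances, and the cause of this turn was not tested. Of 486 settings on 54 named genes, 24 lost a call in 5 genes and 1 gained one. The sign changed in 9 settings of 6 genes, none of them called: without single libraries z ran from -0.0158 to 0.010 for *Isg20l2*, -0.0898 to 0.0574 for *Slc25a31*, -0.0395 to 0.00630 for *Lmna*, -0.0971 to 0.0388 for *Mtx1*, -0.162 to 0.0255 for *S100a13* and -0.157 to 0.00169 for *Ecm1*. The cause was not tested. Contrasts within groups by RPKM or length, without the stretch at 30 to 40 Mb, and without genes of doubtful interval or window were added after seeing the data and kept their direction. Without genes of doubtful interval the near minus far difference was -0.161. The depth behind single genes is not known, and the median standard error of z was 0.0406 in the group of lowest RPKM and 0.0198 in that of highest.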

Other observations

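Uninduced ratios were close to balance for most genes, with 422 of 538 genes (78.4%) between 0.4 and 0.6, but a small set was skewed before Xist RNA was induced. These genes were chosen after their values were seen. The mean NoDox ratio was under 0.3 in 20 genes, which had a median z of -0.0780, and over 0.6 in 30 genes. Those of the 20 with a NoDox ratio of at least 0.1 yet kept a median of 51.5%. *Gpr89* had 0.812 without and 0.589 with Dox, and *Veph1* 0.792 and 0.420. The lncRNA gene *Gm6639* kept most of its skew, at 0.772 ± 0.0322 without and 0.680 ± 0.00178 with Dox (SD, n = 3 each; z of -0.0911, limma's standard error 0.0339). With Dox, 12 genes still had a mean ratio over 0.5, and 14 had one under 0.05.

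The WT pair and the replicates differed most, among genes of both tables, for *Lpar3*, a lysophosphatidic acid receptor (z of -0.0618 in the replicates and -0.448 in the pair), *Zfp687*, a zinc finger protein (-0.106 and -0.410), and, in the other direction, *Arhgef26* (-0.254 and -0.0409). These genes were chosen after their values were seen, and the pair has no replicate and is titled mRNA.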
